A study of Mus musculus with 7 samples.

Results

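Connexins are the proteins that build gap junctions, and their genes were followed here in endothelial cells of lymphatic vessels from BPC melanomas and from naive skin of the mouse ear pinna. The members are 5 connexin genes chosen by symbol, Gja1, Gja4, Gja5, Gjc1 and Gjb2, and all 5 were found among the 26583 genes of the count table. RNA sequencing gave 7 libraries, 4 from melanomas and 3 from naive skin. The tumour libraries came from mice with the genotype BrafCA/+; pten l/l; Cre+, 2 of them male (replicates 1 and 2) and 2 female (replicates 3 and 4). The naive libraries carried BrafCA/+; pten l/l without Cre, except that naive replicate 2 pooled such mice with Braf+/+;pten l/l Cre+ mice. Naive replicate 1 pooled both sexes, replicate 2 was female and replicate 3 was male. All groups thus shared the pten l/l alleles. The sources used here do not name the promoter that drives Cre, the age of the mice, the sort or the number of mice per library. The p-values therefore cover only the spread between these libraries.

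Connexins span the membrane several times, a ring of them forms a hemichannel, and hemichannels of neighbouring cells dock into a channel that passes ions and small molecules from cell to cell. Connexins also form mixed channels, so which connexin genes a cell uses sets what its junctions let through. In mouse lymphatic endothelium, connexins 37 (Gja4) and 43 (Gja1) are known from vessels and their valves, and loss of Gja4 or of endothelial Gja1 disturbs valve formation.

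Total counts were 52940832 to 62947508 in the tumour libraries and 59735153 to 63032175 in the naive libraries, so 3 counts, taken as the floor of detection, equalled 0.0478 to 0.0521 CPM. CPM are counts per 1000000 of the scaled library size. A single gene, Ccdc115, took 6.68% to 16.5% of counts in tumour libraries and 10.9% to 15.9% in naive libraries. The lymphatic markers Prox1, Flt4, Lyve1, Pdpn, Reln, Ccl21a and Mmrn1 had counts in every library, and their summed level was 9810 to 13200 CPM in tumour and 11300 to 14000 CPM in naive libraries. Summed markers of fibroblasts, blood endothelium, melanocytes and myeloid cells were higher in every tumour library than in any naive one, while those of mural cells and keratinocytes overlapped between the groups. The 8 fibroblast markers summed to 1730 to 18200 CPM in tumour and 607 to 1190 CPM in naive libraries. The 8 mural markers summed to 4.75 to 79.8 CPM in tumour and 2.41 to 8.36 CPM in naive libraries. The 9 blood endothelial markers summed to 771 to 957 CPM in tumour and 549 to 669 CPM in naive libraries. Plvap was the largest part of that sum in every library. Plvap, Cd34 and Ly6c1 were higher in every tumour library than in any naive one, Emcn was lower, and Flt1, Vwf and Sox17 overlapped. Tumour replicate 4 had the highest tumour sum for fibroblast, mural, blood endothelial, melanocyte and myeloid markers. In bulk samples, fewer cells of a type and less RNA per cell cannot be told apart.

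Among the 5 members, Gja1, Gja4 and Gjc1 were well measured in all 7 libraries, Gjb2 had counts in tumour libraries only, and Gja5 had 0 counts throughout. Gja1 was lower in each tumour library than in any naive library, and Gja4 was higher in each tumour library than in any naive library. Such a lack of overlap was found for 8.46% of genes tested with tumour lower and for 9.57% with tumour higher. Neither difference passed the test after adjustment over all genes: 0 of the 3 tested members passed edgeR's quasi-likelihood test at an adjusted p of 0.05, beside 1.70% of the 13453 genes tested. At an unadjusted p under 0.05 all 3 were called, beside 16.9% of genes tested. DESeq2, run as an alternative with its own default filter in place of edgeR's, called Gja1, Gja4 and Gjb2. It called 11.1% of the 13718 genes to which it gave an adjusted p.

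Gja1 encodes connexin 43, the most widely used connexin of the body, which is also abundant in fibroblasts and keratinocytes. It lies on chromosome 10 from 56377330 to 56402513 (GRCm38, plus strand), and no annotated gene overlaps it. Gja1 stood at 151, 117, 204 and 150 CPM in tumour replicates 1 to 4, against 211, 329 and 300 CPM in naive replicates 1 to 3. The groups did not overlap, but the highest tumour library and the lowest naive library lay close together, at 204 and 211 CPM. The means were 155 ± 35.7 CPM in tumour (SD, n = 4) and 280 ± 61.4 CPM in naive skin (SD, n = 3). The log2 fold change was -0.85 (SE 0.22), with an adjusted p of 0.0931 by edgeR. Without 1 library at a time it ran between -1.02 and -0.72, with adjusted p-values of 0.0815 to 0.258. DESeq2 gave -0.84 with an adjusted p of 0.00566. The fibroblast markers stood the other way, higher in tumour, and their part in the value of Gja1 was not tested.

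Gja4 encodes connexin 37, known from arterial and lymphatic endothelium and needed for lymphatic valves in mice. It lies on chromosome 4 from 127311421 to 127314039 (minus strand), and no annotated gene overlaps it. Gja4 stood at 38.5, 48.5, 58.2 and 108 CPM in tumour replicates 1 to 4, against 26.4, 28.8 and 36.6 CPM in naive replicates 1 to 3. All tumour libraries lay above all naive ones, tumour replicate 1 by a small margin, and tumour replicate 4 was the highest. The means were 63.3 ± 30.9 CPM in tumour (SD, n = 4) and 30.6 ± 5.33 CPM in naive skin (SD, n = 3). The log2 fold change was 1.05 (SE 0.36), with an adjusted p of 0.178 by edgeR. It was 0.67 without tumour replicate 4 (adjusted p = 0.284 by edgeR). DESeq2 gave 1.06 with an adjusted p of 0.0433. Pericytes and smooth muscle cells of the mouse also use Gja4. Of the 8 mural markers, 2 to 4 were at 0 in a tumour library and 4 to 6 in a naive library. The smooth muscle myosin gene Myh11 had at most 10 counts in any library. The mural marker Cspg4 had 244, 33, 39 and 2660 counts in tumour replicates 1 to 4. In naive replicates 1 to 3 it had 0, 1 and 1 counts (adjusted p = 0.0759 by edgeR). Cspg4 was thus higher in every tumour library and highest in tumour replicate 4, but its order over tumour replicates 1 to 3 was not that of Gja4. Tagln overlapped between the groups (log2 fold change 0.1). Des was highest in naive replicate 1, at 245 counts, and Cnn1 had counts in tumour replicate 1 only, at 109. Notch3 (182 counts) and Rgs5 (25 counts) were highest in tumour replicate 4. The actin gene Acta2 had 0, 1, 404 and 1253 counts in tumour replicates 1 to 4 and 0 counts in each naive library. The order of Acta2 over the 4 tumour libraries was that of Gja4. The part of mural cells in the value of Gja4 was not tested.

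**Figure D1:**
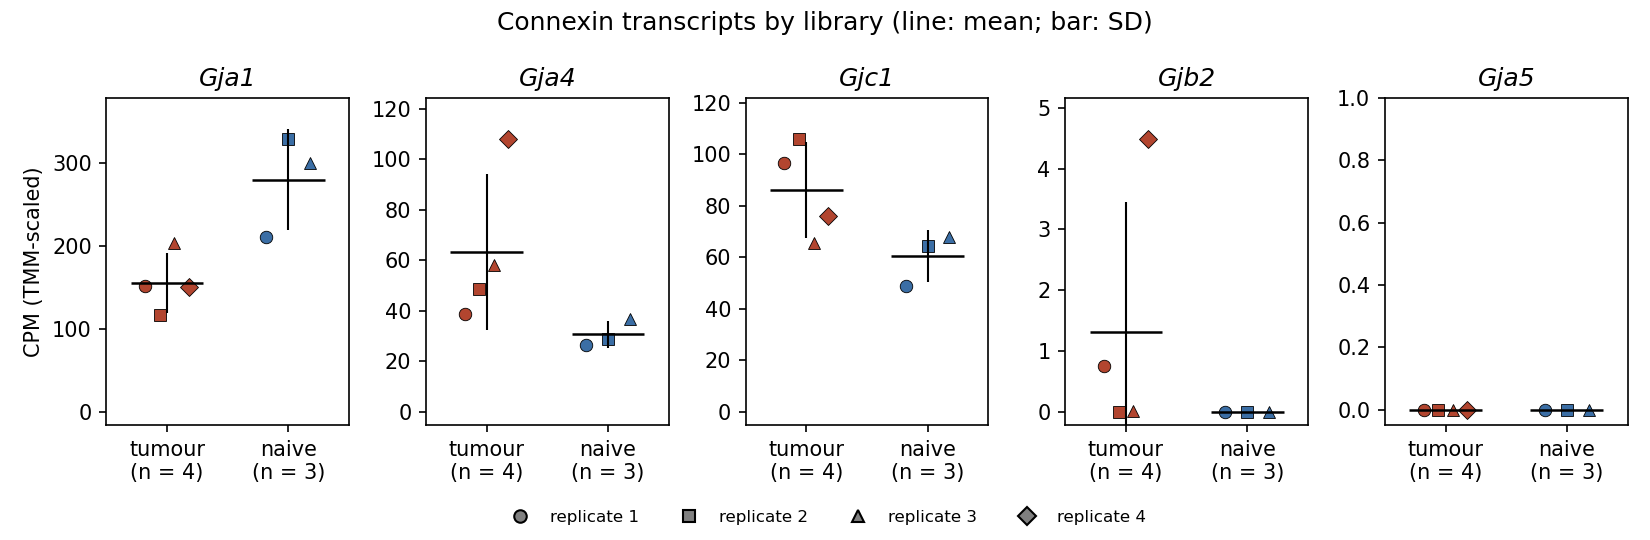
CPM of the 5 connexin genes in each library, tumour left and naive right, with a panel and a linear axis of its own for each gene; symbols mark the replicate, the horizontal line the mean and the vertical bar the SD. Gja1 is lower and Gja4 higher in all 4 tumour libraries than in the 3 naive ones, Gjc1 overlaps, Gjb2 is led by tumour replicate 4 at 4.49 CPM, and Gja5 is at 0.

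The promoters of these genes are shown because they stood on opposite sides of the comparison. Each runs from 250 bases before to 50 bases after the start of transcription, from RefSeq on GRCm38.p6, written 5′ to 3′ on the gene's own strand. Capitals mark matches, on either strand, to AP-1 (TGANTCA), RBPJ (TGGGAA), forkhead (TAAACA), NFAT (GGAAA) and KLF (CCACCC) motifs.
Gja1, chr10:56377050-56377349: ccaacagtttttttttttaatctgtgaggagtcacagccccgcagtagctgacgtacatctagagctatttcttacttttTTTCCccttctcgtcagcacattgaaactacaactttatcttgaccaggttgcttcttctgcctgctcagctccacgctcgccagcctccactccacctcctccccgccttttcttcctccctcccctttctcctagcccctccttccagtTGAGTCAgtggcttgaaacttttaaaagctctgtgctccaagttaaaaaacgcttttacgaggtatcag
Gja4, chr4:127313990-127314289: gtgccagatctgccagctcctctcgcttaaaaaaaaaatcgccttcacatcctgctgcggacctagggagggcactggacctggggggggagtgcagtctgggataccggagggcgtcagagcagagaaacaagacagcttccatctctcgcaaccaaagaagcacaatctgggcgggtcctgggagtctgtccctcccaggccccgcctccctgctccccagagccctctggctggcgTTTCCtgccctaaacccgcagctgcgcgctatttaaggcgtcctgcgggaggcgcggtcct
Gja1 held 1 match to the AP-1 motif, which stood in 7.81% of the 32851 mouse promoters of that length, and Gja4 held 0. Each held 1 match to the NFAT motif, found in 61.3% of promoters. RBPJ, forkhead and KLF motifs had 0 matches in both windows, against 25.6%, 13.4% and 31.5% of all promoters. The NFAT and RBPJ letters are short, and a match is a description of these letters, not a binding site.

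Gjc1 encodes connexin 45, which in lymphatic vessels of the mouse is best known from the muscle layer, where it carries the contraction signal, and which the embryonic endothelium uses early. It lies on chromosome 11 from 102799579 to 102819700 (minus strand). Gjc1 stood at 96.8, 106, 65.6 and 76.0 CPM in tumour replicates 1 to 4, against 49.0, 64.4 and 67.9 CPM in naive replicates 1 to 3. The groups overlapped, since tumour replicate 3 lay below naive replicate 3. The means were 86.1 ± 18.6 CPM in tumour (SD, n = 4) and 60.4 ± 10.1 CPM in naive skin (SD, n = 3). The log2 fold change was 0.51 (SE 0.22; adjusted p = 0.278 by edgeR and 0.159 by DESeq2). Gjc1 was highest in tumour replicates 1 and 2, which had the lowest fibroblast sums of the tumour libraries, and Gja4 was highest in tumour replicate 4. Tumour replicates 1 and 2 were also the male tumour libraries, and with sex as a term the log2 fold change of Gjc1 was 0.35. The part of fibroblasts or of sex in the value of Gjc1 was not tested.

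Gjb2 encodes connexin 26, a connexin of epithelia such as the epidermis, and lies on chromosome 14 from 57098600 to 57104702 (minus strand). It had 45, 0, 1 and 269 counts in tumour replicates 1 to 4 and 0 counts in each naive library. Tumour replicate 4 thus held most of its RNA, at 4.49 CPM, and tumour replicate 1 had 0.744 CPM. The gene did not pass the filter on low counts. Without the filter its adjusted p was 0.308 by edgeR, and DESeq2 gave 0.0400. The keratinocyte markers summed to 99.1, 42.3, 121 and 30.7 CPM in tumour replicates 1 to 4, and the lowest of these sums was in the library with the most Gjb2. In naive libraries they summed to 62.2, 2.39 and 27.1 CPM, and the part of keratinocytes in Gjb2 was not tested.

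Gja5 encodes connexin 40, a marker of arterial endothelium and of the conduction system of the heart, and lies on chromosome 3 from 96904693 to 97077416 (plus strand). It had 0 counts in all 7 libraries, which allows at most 0.0478 to 0.0521 CPM per library by counting error alone. The span of Gja5 overlaps 4 other annotated genes, and 165 of the 3668 bases of its longest protein-coding transcript lie in an exon of another gene. The kit does not mark strand, so a counter that drops ambiguous reads would lose reads from those bases. Of the connexins known from arterial endothelium, Gja4 was thus at 26.4 CPM or more in every library and Gja5 was not detected. Blood endothelial markers were not absent, and they did not all stand on 1 side. Plvap stood at 555 to 704 CPM in tumour and 323 to 458 CPM in naive libraries, while Flt1, a receptor gene of blood endothelium, had 253, 2, 45 and 931 counts in tumour replicates 1 to 4 and 0, 19 and 0 in naive replicates 1 to 3. Emcn stood at 132, 110, 80.6 and 72.9 CPM in tumour replicates 1 to 4, against 235, 182 and 179 CPM in naive replicates 1 to 3, and was thus lower in every tumour library (log2 fold change -1.01, adjusted p = 0.0673 by edgeR).

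Of the other connexin genes reported here, Gjd3 had at least 1152 counts in every library. Gjd3 averaged 33.4 ± 8.40 CPM in tumour (SD, n = 4) and 23.6 ± 4.29 CPM in naive skin (SD, n = 3), with an adjusted p of 0.431 by edgeR. Gjc3 (connexin 29), a connexin of glial cells, had 7, 61, 39 and 377 counts in tumour replicates 1 to 4 and 0 counts in each naive library (adjusted p = 0.137 by edgeR and 0.000386 by DESeq2). The melanocyte markers, which include the neural crest gene Sox10, summed to 10.6, 67.3, 41.2 and 119 CPM in the same 4 libraries and to 1.18 to 4.28 CPM in naive ones, and their part in Gjc3 was not tested. Gja3 had 10 or more counts in 1 tumour library and Gjd4 in 1 naive library. Gjb5 had 1 count in all, and Gja6, Gja10, Gjb1, Gjb6, Gjd2 and Gje1 had 0. Of the pannexin genes, whose products form channels without building gap junctions, Panx1 ranged widely, with 550, 336, 216 and 831 counts in tumour and 1007, 192 and 51 counts in naive libraries. Panx2 had 20 counts in 1 tumour library, and Panx3 had 0.

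Levels of connexin genes were set side by side per kilobase of transcript. The order of the levels depended on which length was used, mostly for Gja1, whose annotated exons cover 10257 bases with a retained intron and non-coding exons, against 3182 bases for its longest protein-coding transcript. Per kilobase of all annotated exons, tumour means were 39.9 ± 10.03 for Gjd3, 37.6 ± 18.3 for Gja4, 17.2 ± 3.71 for Gjc1 and 15.1 ± 3.49 CPM per kb for Gja1 (SD, n = 4). Naive means on that scale were 28.2 ± 5.13 for Gjd3, 27.3 ± 5.99 for Gja1, 18.2 ± 3.16 for Gja4 and 12.1 ± 2.01 CPM per kb for Gjc1 (SD, n = 3). Neighbours in these orders overlapped between libraries, except that Gja4 lay above Gjc1 in both groups. Per kilobase of the longest protein-coding transcript, a length chosen after seeing the data, Gja1 stood at 48.8 ± 11.2 CPM per kb in tumour (SD, n = 4) and at 88.1 ± 19.3 CPM per kb in naive skin (SD, n = 3). Of these 4 genes Gja1 then had the highest mean in both groups, above the others in each naive library but overlapping with all 3 in tumour. Gjd3, Gja4 and Gjc1 were not separated beyond their spread in tumour on this scale, at 39.9, 37.6 and 37.2 CPM per kb. The gene model of Gjd3 holds 837 bases, a coding length without UTRs, so its level per kilobase may be overstated. Lengths do not differ between groups, so fold changes are the same on every scale.

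**Figure D2:**
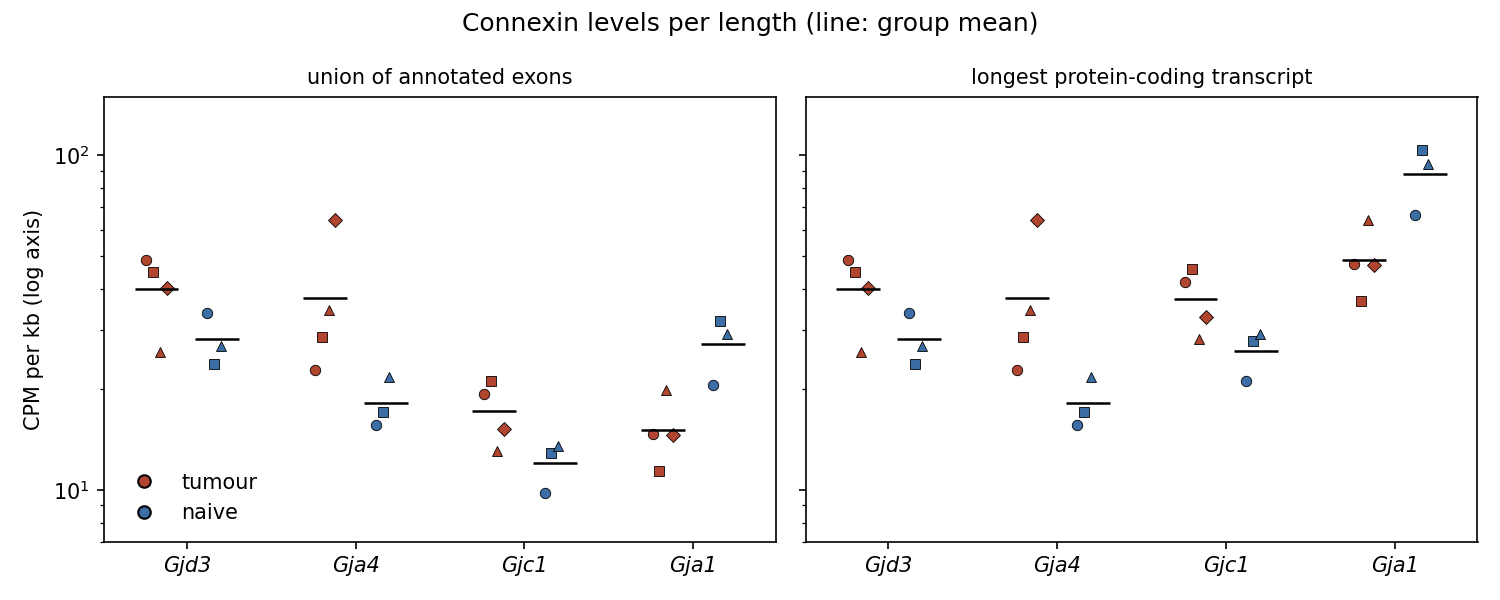
CPM per kb (log axis) of Gjd3, Gja4, Gjc1 and Gja1, divided by the union of annotated exons (left panel) or by the longest protein-coding transcript (right panel); horizontal lines are group means, with tumour left of naive for each gene. Gja1 moves from the lowest tumour mean in the left panel, at 15.1 CPM per kb, to the highest of the 4 in the right panel, at 48.8 CPM per kb.

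Ratios of counts within a library need no scaling between libraries, and 3 are given, chosen after the values were seen. For each Gja1 count there were 0.255, 0.413, 0.286 and 0.722 Gja4 counts in tumour replicates 1 to 4, against 0.125, 0.0874 and 0.122 in naive replicates 1 to 3. Every tumour library had more Gja4 per Gja1 than every naive library, which follows from the lack of overlap of each gene given above. The mean log2 ratio was -1.38 ± 0.68 in tumour (SD, n = 4) and -3.18 ± 0.29 in naive skin (SD, n = 3). The difference was 1.80, or 3.49-fold. A two-sided exact permutation test over the 35 splits had to give its smallest p here, 0.0571 (0.0856 adjusted over the 3 ratios). That p therefore adds nothing to the values of Gja1 and Gja4. The ratio of Gjc1 to Gja1 differed by 1.35 on the log2 scale, without overlap, with the same exact permutation p of 0.0571. That is again the smallest p the test can give, for a ratio chosen after the values were seen, so it is no evidence of a difference. Of the 2 genes in this ratio, Gja1 alone was already without overlap and Gjc1 overlapped. The ratio of Gjc1 to Gja4 overlapped between the groups, at 0.53 ± 0.86 in tumour (SD, n = 4) and 0.98 ± 0.15 in naive skin (SD, n = 3; exact permutation p = 0.514). These 3 ratios share genes and are not independent of each other or of the fold changes above.

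**Figure D3:**
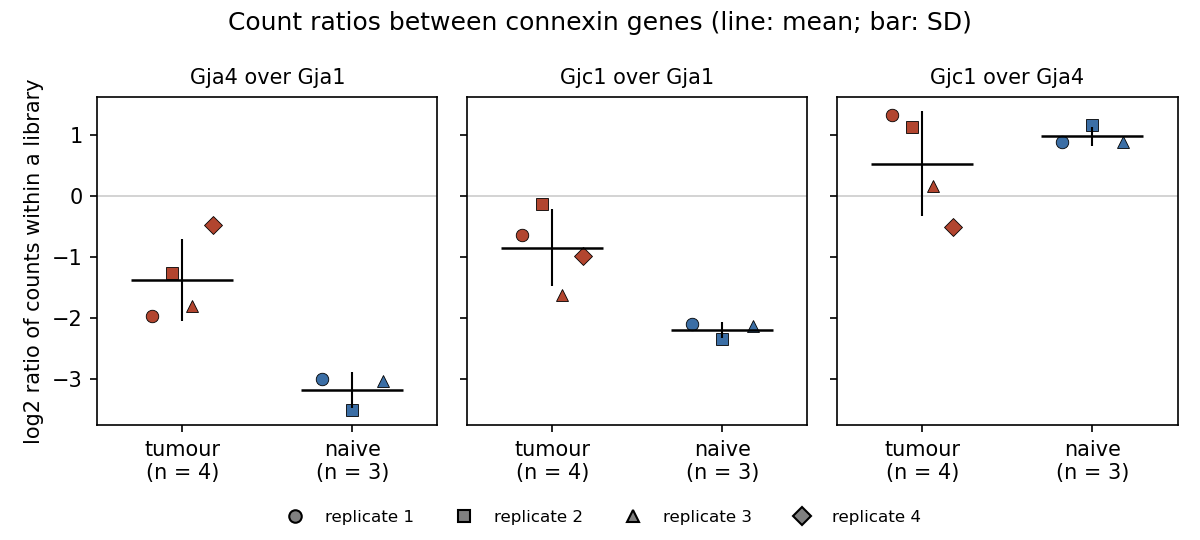
Log2 ratios of counts between connexin genes within each library, tumour left and naive right; symbols mark the replicate, lines the mean and bars the SD. Both ratios over Gja1 are higher in all 4 tumour libraries than in the naive ones, while Gjc1 over Gja4 overlaps.

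The descriptions of the samples end in a tag taken here for the lane of the sequencer. By it, naive replicates 1 and 2 were on lane 7, tumour replicates 1, 2 and 4 on lane 6, and lane 8 alone held both groups, as tumour replicate 3 and naive replicate 3. Between these libraries, log2 of CPM plus 0.5 differed by -0.56 for Gja1, 0.66 for Gja4 and -0.05 for Gjc1, tumour minus naive. Gja1 and Gja4 thus kept their direction within lane 8 and Gjc1 did not, in 1 library against 1 with no test. Tumour replicate 3 was female and naive replicate 3 male, so group and sex cannot be told apart within lane 8. Within lane 8 the log2 ratio of Gja4 to Gja1 differed by 1.23, against 1.80 over all libraries, that of Gjc1 to Gja1 by 0.51, against 1.35, and that of Gjc1 to Gja4 by -0.72, against -0.45.

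**Figure D4:**
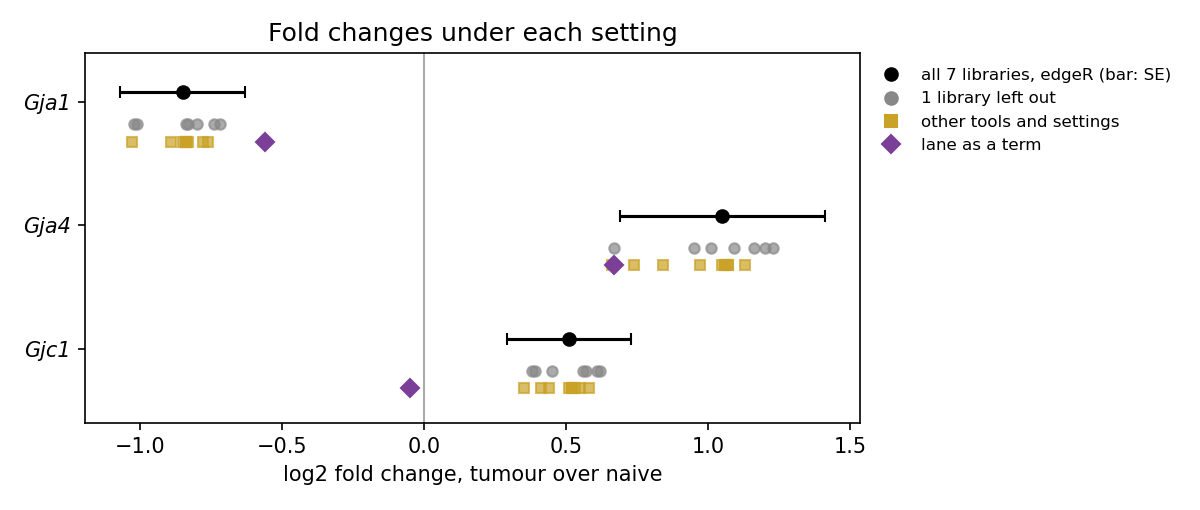
Log2 fold change of Gja1, Gja4 and Gjc1, tumour over naive, in the fit of all 7 libraries (black, bar: SE) and under each other setting: 1 library left out (grey), other tools and settings (yellow) and lane as a term (purple). All values of Gja1 are below 0 and all of Gja4 above 0, while Gjc1 is at -0.05 with lane as a term.

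Connexins are held in place, moved and modified by other proteins. The list of 17 partner and trafficking genes had 0 members past edgeR's test in either direction (4 higher and 2 lower at an unadjusted p under 0.05). At that unadjusted threshold 1224 of the 13453 genes tested were higher and 1054 lower. Of the 4 higher partners, Dsp and Cdh2 averaged 4.53 and 1.28 CPM in tumour and 0.138 and 0.00576 CPM in naive skin. The median log2 fold change of the list was 0.05, beside 0.04 over all genes tested. The highest of them in CPM, which is not corrected for length, were Nedd4, a ubiquitin ligase gene that acts on connexin 43, at 588 ± 77.5 CPM in tumour (SD, n = 4) and 533 ± 41.3 CPM in naive skin (SD, n = 3), and the caveolin gene Cav1, at 507 ± 84.9 CPM in tumour (SD, n = 4) and 474 ± 46.9 CPM in naive skin (SD, n = 3). Of 12 genes for kinases that phosphorylate connexins, 0 passed (0 higher and 3 lower at an unadjusted p under 0.05), with a median of -0.17. The highest in CPM were Akt1, at 545 ± 88.8 CPM in tumour (SD, n = 4) and 616 ± 94.9 CPM in naive skin (SD, n = 3), and the casein kinase gene Csnk1d, at 248 ± 47.3 CPM in tumour (SD, n = 4) and 385 ± 16.0 CPM in naive skin (SD, n = 3). DESeq2 called more genes than edgeR over the whole table, 1518 beside 229.

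Lymphatic valve genes include the factors that switch on Gja4 in mouse valves. Of 18 such genes 0 rose, 2 fell and 16 did not pass, with a median log2 fold change of -0.36. Of all genes tested, 0.899% rose and 0.803% fell. At an unadjusted p under 0.05 by edgeR, 2 of the 18 were higher and 5 lower, beside 1224 and 1054 of the 13453 genes tested. Klf4, a flow-induced transcription factor gene, fell to 295, 289, 441 and 369 CPM in tumour replicates 1 to 4, against 809, 694 and 716 CPM in naive replicates 1 to 3 (log2 fold change -1.09, adjusted p = 0.0219 by edgeR). Efnb2, the gene of a valve and arterial ephrin ligand, stood at 239, 194, 168 and 184 CPM in tumour replicates 1 to 4, against 349, 320 and 520 CPM in naive replicates 1 to 3 (log2 fold change -1.01, adjusted p = 0.0452 by edgeR). Both genes were lower in every tumour library, and the call of Klf4 was lost without any 1 naive library, that of Efnb2 in 6 of the 7 leave-one-out fits. The transcription factor genes Foxc2 and Prox1, which act upstream of Gja4 in mouse lymphatic valves, did not pass, at 45.2 ± 5.75 and 484 ± 131 CPM in tumour (SD, n = 4) and 50.04 ± 4.37 and 661 ± 125 CPM in naive skin (SD, n = 3). Foxc2 and Prox1 were named for this role after their values were seen. The factor genes Gata2 and Foxc1 of the same list did not pass either, at log2 fold changes of -0.67 and -0.63 (adjusted p = 0.184 and 0.118 by edgeR). Foxc1 was lower in every tumour library than in any naive one, and Gata2 overlapped. Piezo1, the flow sensor, is listed under its older symbol Fam38a and had a log2 fold change of -0.04.

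Of 11 arterial and Notch genes, 10 were tested, 0 rose and 3 fell, with a median log2 fold change of -0.88. Over all genes tested, 0.899% rose and 0.803% fell, with a median of 0.04. Like the other lists, this list was chosen with earlier results of these data known. The Notch ligand gene Dll4 fell to 56.3, 54.5, 31.9 and 50.6 CPM in tumour replicates 1 to 4, against 248, 220 and 191 CPM in naive replicates 1 to 3. The log2 fold change of Dll4 was -2.18 (adjusted p = 0.00696 by edgeR), and 0.0504 was the adjusted p without naive replicate 1, the single leave-one-out fit that lost the call. The receptor gene Notch1 and the feedback gene Nrarp fell by 1.11 and 1.38 on the log2 scale (adjusted p = 0.0385 and 0.0299 by edgeR), and each lost the call in 6 of the 7 leave-one-out fits. The calls of Dll4, Notch1, Nrarp, Klf4 and Efnb2 were also lost with lane or sex as a term in the fit, with each gene still lower in tumour.

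The genes whose pattern over the 7 libraries was most like that of each member were found by the root mean square difference of centred log2 CPM, among 7216 well expressed genes. For Gja1 these were Zbtb2 (0.147) and Zbtb11 (0.153), for Gja4 Filip1 (0.139) and Soat1 (0.215), and for Gjc1 Gpd2 (0.0776) and Fam149a (0.0984), beside medians over all candidates of 0.588, 0.750 and 0.492. Libraries share scaling and depth, and likeness over 7 libraries is a description only.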

How the data were processed

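The 7 libraries were made with a Takara SMART-Seq v4 kit, which does not mark strand, per the labels' protocols. Raw counts per gene were deposited in a table, beside one of normalized log2 values. Connexin and pannexin genes without reads in any library are listed there at 0. Where such a gene had reads in another library, its libraries without reads stand at a constant that differs between genes. Trimmomatic 0.38 and build mm10 are named in the submitters' processing notes; the aligner, counter and normalization: not given in the sources used here. Of 26608 entries, 25 with a date for a symbol were left out (0.174% to 0.236% of counts). Counts were tested in R 4.3.3 with edgeR 4.0.16 (filterByExpr, TMM, robust quasi-likelihood fit, glmQLFTest, Benjamini-Hochberg over 13453 genes), with DESeq2 1.42.0 and limma 3.58.1 as alternatives; the edgeR fit was tested on simulated data. SE is the log2 fold change over the square root of F. Positions and lengths are from GENCODE M21 (GRCm38, the assembly of mm10). Members and lists were chosen with earlier results of these data known. Named genes were the members, other connexins and pannexins with 10 or more counts in a library, list genes past the test (up to 4 a list) or otherwise the 2 best expressed, and the 2 most alike genes per member with mean log2 CPM of at least 4 (prior count 2). Intervals and floors cover counting error only. Some connexin genes, and results that need them, are not reported here. No sample is left out of the main fit.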

Additional observations from a re-analysis of the deposited data

Results flagged for a closer look

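Among the 4 tumour libraries, tumour replicate 4 stood apart for Gjb2, the connexin 26 gene, at 4.49 CPM, against 0.744, 0 and 0.0159 CPM in tumour replicates 1 to 3. Its gap to the next library was 0.834 of the whole range. Chance alone sets apart about 1 in 20 such groups where values are normally distributed, which was not shown for these counts of 45, 0, 1 and 269. That rate is for 1 group, and the rule was applied to all 5 members and the 3 ratios. Tumour replicate 4 was also the highest for Gjc3, at 6.29 CPM against 0.116, 0.999 and 0.622 CPM in tumour replicates 1 to 3. For Gja3 it had 1.59 CPM, against 0.0165, 0 and 0 CPM. The same library had the highest fibroblast marker sum, 18200 CPM, and the lowest keratinocyte marker sum in tumour, 30.7 CPM, and their part in the value of Gjb2 was not tested.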

How the results depend on the processing

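The direction of Gja1 and Gja4 was the same in all 18 alternatives, and that of Gjc1 in 17. DESeq2 called Gja1 (log2 fold change -0.84) and Gja4 (1.06), and also Gjb2, which edgeR's filter leaves out, and no other alternative called a tested member. With lane as a term Gjc1 was at -0.05 and Gjd3 at -0.06, since lane 8 alone then informs the fit, and its libraries also differ in sex. Over the fits without 1 library, log2 fold changes ran from -1.02 to -0.72 for Gja1, 0.67 to 1.23 for Gja4 and 0.38 to 0.62 for Gjc1. The 229 calls over all genes became 1518 with DESeq2, 359 with a filter of 5 CPM in 3 libraries, 355 with limma on the deposited log2 values, 12 with sex as a term, 0 with lane as a term (1169 at an unadjusted p under 0.05) and 7 to 171 without 1 library. The cause was not tested. Without the gene Ccdc115 the edgeR fit gave 226 calls, with Gja1 at -0.84, Gja4 at 1.07 and Gjc1 at 0.52. Replicate numbers are not stated to pair the libraries. Deviations of same-numbered libraries from their group means correlated at -0.01, -0.04 and -0.02 over genes, which shows no pairing but cannot exclude it. The replicate block gave 3 calls, with Gja1 at -0.84, Gja4 at 0.66 and Gjc1 at 0.55, none called. Upper-quartile scaling split the calls into 156 higher and 92 lower and limma-voom into 101 and 173, beside 121 and 108. Levels per kilobase moved with the length used: with the longest transcript, Gja1 was at 39.9 CPM per kb in tumour and 72.0 in naive skin and Gjc1 at 25.2 and 17.7, and with the longest protein-coding transcript Gja1 was at 48.8 and 88.1 and Gjc1 at 37.2 and 26.1. Gjb2 had too few counts for the filtered fits and Gja5 none, so neither has a value there.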
